A study of Mus musculus with 7 samples.

Results

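Interferon-stimulated genes are genes that cells switch on in response to interferons, secreted cytokines of antiviral and antimicrobial defence. A list of 38 such genes of the type I and type II response was taken by gene symbol, and all 38 are among the 24964 genes of the expression table. Expression was measured by RNA sequencing of whole uterus from 12-week-old mice in diestrus, a phase of the estrous cycle. The 3 control libraries, numbered 1, 2 and 4, carry the genotype Pgrcre/+, and the 4 others, numbered 1 to 4, carry Pgrcre/+Foxl2LsL/+. All 7 libraries therefore share the Pgrcre allele, which places Cre recombinase under the progesterone receptor gene, and the second group adds the allele Foxl2LsL. In mouse genetics such a name usually marks a transgene held off by a stop sequence that Cre removes, though the labels do not spell it out. The labels name no wild-type group and do not say whether the libraries come from separate animals, so p-values here measure only the spread between these libraries.

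Type I interferons, among them interferon alpha, beta and epsilon, bind the receptor IFNAR1 and IFNAR2, and type II interferon, interferon gamma, binds IFNGR1 and IFNGR2. The kinases JAK1, TYK2 and JAK2 on these receptors then pass the signal to the nucleus. A complex that holds STAT2 and IRF9 binds the interferon-stimulated response element in type I target genes, and type II target genes typically carry the gamma-activated site. In the female reproductive tract, interferon epsilon is known as a constitutive product of the epithelium that varies with the hormonal cycle.

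Values are FPKM, read fragments divided by gene length and by library size. They put genes of different length on one scale, but each value is relative to its library's total, which limits comparison between libraries. Between 35547173 and 51719950 fragments fell on the listed genes of a library, and each of the 38 genes had at least 46 fragments in every library. Foxl2, the gene named in the second genotype, was at 11.1, 19.3 and 12.9 FPKM in controls 1, 2 and 4. Its values were 12.7, 14.3, 14.8 and 17.2 FPKM in the libraries labelled Foxl2LsL, so the groups overlapped (log2 fold change 0.06, SE 0.18, limma adjusted p 0.818). Foxl2 therefore does not separate the labelled groups, and each direction in the text follows the labels alone. The labels do not say whether a transcript of the allele Foxl2LsL would be counted under Foxl2, so these values do not show whether it was expressed. Markers of the labelled tissue were present: Hoxa10, a uterine homeobox gene, was at 22.6 FPKM or more in every library. The highest summed level of 4 ovary markers was 1.16 FPKM. Levels of uterine markers differed between the groups. Mean Hoxa10 fell from 77.9 to 25.4 FPKM and Hoxa11 from 51.9 to 12 FPKM (limma adjusted p 0.00835 and 0.00286). Esr1 rose from 39.8 to 58.2 FPKM (limma adjusted p 0.00662), and Pgr had an adjusted p of 0.0845. Of 4 uterine gland markers, Prss29 (means 0.0127 and 0.0877 FPKM) and Spink1 (3.86 FPKM in control 4 and 0 elsewhere) were too low to be tested. The other 2, Foxa2 (5.71 to 1.36 FPKM) and Cxcl15 (27.8 to 4.26 FPKM), fell. The part of these differences in the results was not tested. Adipose markers differed from library to library, and a marker of the oviduct, Ovgp1, reached 291 FPKM in control 2 against 1.65 to 19.7 FPKM in the other 6 libraries.

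The first question was whether the interferon-stimulated genes differed between the genotypes. Of the 38 genes, 5 passed an adjusted p of 0.05: Ifit3 rose, and Ifit2, Rsad2, Ddx58 and Xaf1 fell in the libraries labelled Foxl2LsL. The other 33 did not pass. Over all 13334 genes tested, 40.6% passed, 16.7% as higher and 23.9% as lower (limma on log2(FPKM + 1), Benjamini-Hochberg). The 38 genes, of which 13.2% passed, thus lay below the share of the whole table. Their median log2 fold change was 0.04, beside -0.05 over all genes tested, with 22 estimates above 0 and 16 below. Fold changes are differences of mean log2(FPKM + 1), a scale on which those of low genes come out too small.

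**Figure D1:**
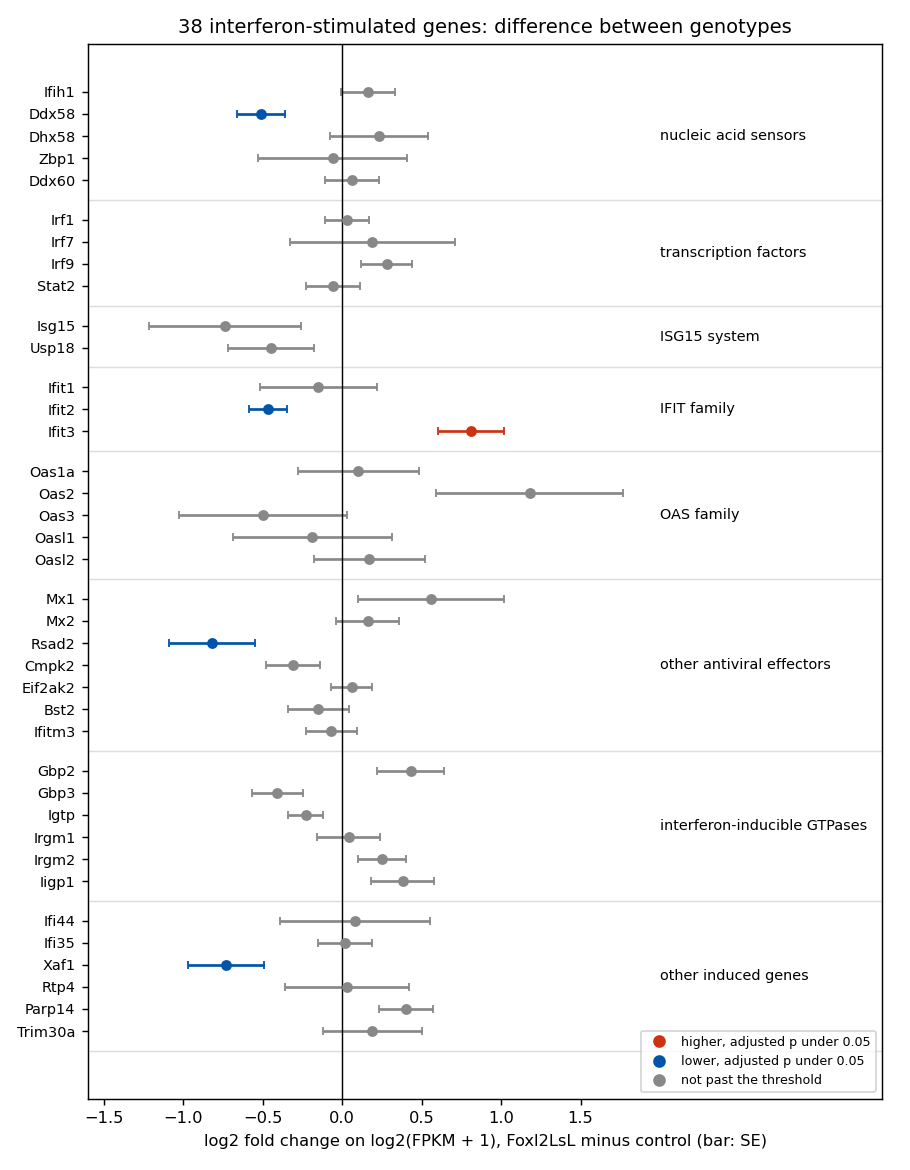
Log2 fold change on the log2(FPKM + 1) scale (x axis, libraries labelled Foxl2LsL minus controls, bars SE) of the 38 interferon-stimulated genes (y axis), grouped by role. Ifit3 stands to the right in red, Ifit2, Rsad2, Ddx58 and Xaf1 to the left in blue, and the 33 genes in grey did not pass the threshold.

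The genes also showed little separation of the groups in their raw values. In 4 of 38 genes no library of one group fell within the range of the other, with 1 higher and 3 lower, where 47.6% of all genes tested had such a separation. The spread within a genotype was wide: the median within-group SD was 0.32 for the 38 genes and 0.14 for all genes tested, both on the log2 scale. In 15 of the 38 (39.5%), the highest of the 4 Foxl2LsL libraries was over 2 times the lowest, against 6.17% of all genes tested. The typical size of the difference was not larger than elsewhere, with a median absolute log2 fold change of 0.21 against 0.27. At this spread a p that missed the threshold does not show that a gene was equal in the genotypes.

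This spread followed the same libraries for most of the genes. Relative to each gene's mean over the 7 libraries, the median of the 38 genes was 0.23, 0.09 and -0.43 on the log2 scale in controls 1, 2 and 4. It was 0.38, -0.41, -0.17 and 0.23 in libraries 1, 2, 3 and 4 labelled Foxl2LsL. For all genes tested the same medians lay between -0.04 and 0.05. Control 4 was the lowest control for 34 of the 38 genes, against 45.8% of all genes tested. Among the libraries labelled Foxl2LsL, number 2 was the lowest for 30 genes and number 1 the highest for 28, against 33.2% and 31.1% of all genes.

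**Figure D2:**
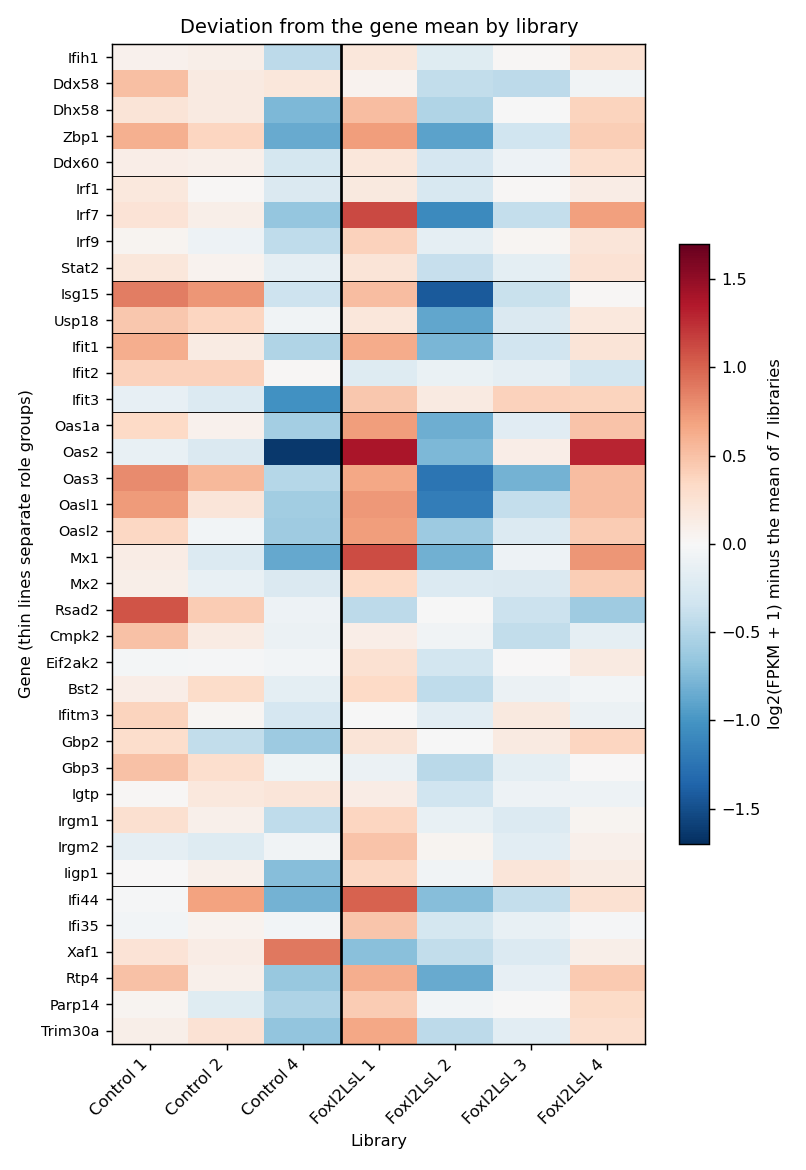
Each cell gives log2(FPKM + 1) of a gene (y axis) in a library (x axis) minus the gene's mean over the 7 libraries, red above and blue below, with a vertical line between controls and Foxl2LsL libraries. Most rows are blue in control 4 and Foxl2LsL 2, and red in control 1, Foxl2LsL 1 and Foxl2LsL 4; Xaf1 is red in control 4 and blue in Foxl2LsL 1.

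Adipose markers divided the libraries as the medians of the interferon-stimulated genes did, but did not rank them alike. Adipoq, which encodes the fat-cell hormone adiponectin, was at 0, 0.736 and 9.23 FPKM in controls 1, 2 and 4, and at 0.409, 15.2, 27.3 and 2.40 FPKM in libraries 1 to 4 labelled Foxl2LsL. The sum of 4 adipose markers (Adipoq, Plin1, Cidec and Lep) was 0.016 to 16.3 FPKM in controls and 0.657 to 51.0 FPKM in the other group. The 3 libraries in which Adipoq was at least 5 FPKM, control 4 and Foxl2LsL 2 and 3, were thus the 3 in which the median of the interferon-stimulated genes was below 0. Within these 3, in that order, the adipose sums were 16.3, 27.2 and 51.0 FPKM and the medians -0.43, -0.41 and -0.17. The library with the highest adipose sum thus had the median nearest 0. In 28 of the 38 genes, controls 1 and 2 exceeded control 4 while Foxl2LsL 1 and 4 exceeded 2 and 3. That order was held by 14.2% of all genes tested. It was read from the same 38 genes, so their larger share comes with the choice and is a description only. The 5 genes past the threshold were all among the 10 that did not follow this order. In bulk tissue, fewer cells of a type and less RNA per cell cannot be told apart, and the part of adipose tissue in the result was not tested.

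Epithelial and macrophage markers also varied. The summed level of 5 epithelial markers was 1094, 799 and 528 FPKM in controls 1, 2 and 4, and 1166, 864, 1121 and 1064 FPKM in libraries 1 to 4 labelled Foxl2LsL. In each group this sum was lowest in the library with the lowest median of the interferon-stimulated genes, control 4 and Foxl2LsL 2. It was highest in the library with the highest median, control 1 and Foxl2LsL 1, while Foxl2LsL 3 did not follow. Other markers set control 4 apart as well. The sum of 4 smooth muscle markers was 525, 468 and 978 FPKM in controls 1, 2 and 4. In libraries 1 to 4 labelled Foxl2LsL it was 1083, 816, 914 and 978 FPKM. The sum of 6 macrophage markers was 54.5 to 72.6 FPKM in controls and 77.5 to 125 FPKM in the other group. Of these 6, Csf1r, Itgam and Mrc1 rose, with log2 fold changes of 0.64, 1.6 and 1.37 (limma adjusted p 0.00691, 0.0416 and 0.000411). Adgre1, Cd68 and C1qa did not pass (0.40, 0.82 and 0.25), so 50% passed, beside 40.6% of all genes tested. Of 3 general leukocyte markers, Laptm5 rose (1.03), while Ptprc and Coro1a did not pass (-0.16 and -0.11). The sum of 4 dendritic cell markers was 3.27 to 5.31 FPKM in controls and 2.16 to 2.91 FPKM in the other group. Of these 4, Zbtb46 alone was high enough to be tested, and it fell from 2.36 to 1.24 FPKM (log2 fold change -0.58, limma adjusted p 0.00817). The means of the untested markers were 1.31 and 0.761 FPKM for Itgax, 0.412 and 0.299 FPKM for Flt3, and 0.216 and 0.227 FPKM for Xcr1. Itgam, a subunit of an integrin of myeloid cells, was at 12.2 and 18.0 FPKM in Foxl2LsL 1 and 4 but 2.93 and 4.21 FPKM in 2 and 3. No marker of T cells or B cells reached a mean of 1 FPKM, and their sums were at most 2.0 and 0.894 FPKM. Plasmacytoid dendritic cells are the main makers of interferon alpha in blood; their marker Siglech was at 0.258 to 0.749 FPKM in controls and 0.799 to 1.3 FPKM in the other group, and Ccr9 was at 0.085 FPKM or less. The third marker of that list, the kallikrein gene Klk1, rose from 0.784 ± 0.191 to 5.06 ± 0.953 FPKM (SD, n = 3 and n = 4, log2 fold change 1.76, limma adjusted p 0.000276) and made up most of the list's sum in the libraries labelled Foxl2LsL. The part of these cell types in the results was not tested.

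**Figure D3:**
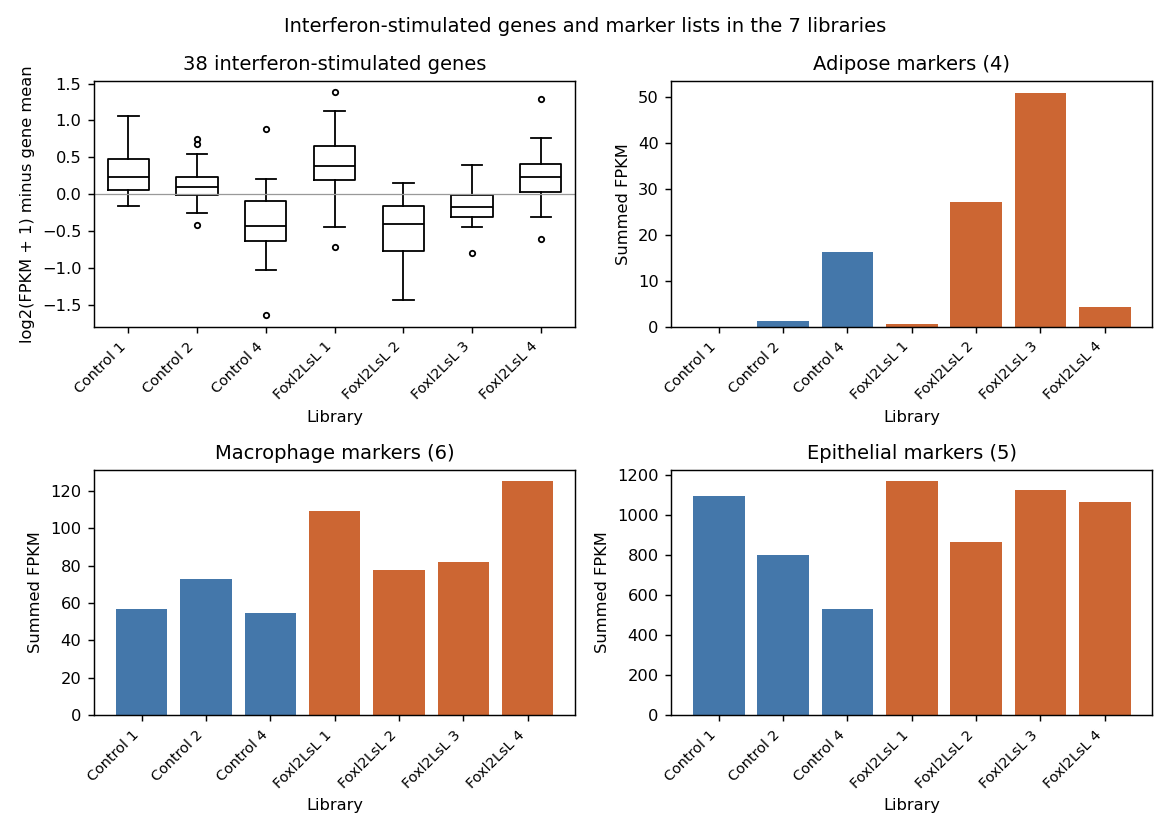
Top left, log2(FPKM + 1) minus the gene mean for the 38 interferon-stimulated genes in each library (box: quartiles, line: median, whiskers: furthest points within 1.5 box lengths, circles: points beyond). The other panels give the summed FPKM of adipose, macrophage and epithelial markers by library, controls in blue and Foxl2LsL in orange; control 4 and Foxl2LsL 2 and 3 hold the 3 highest adipose sums and the 3 lowest gene medians.

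Since the adipose markers split both genotypes, the comparison was repeated on each side of 5 FPKM of Adipoq, a division chosen after the data were seen. It follows the order of the libraries already seen in these genes, so the smaller spread within its parts comes with the choice, and the counts and p-values from it and from the covariate are descriptions that support no change. With the 2 controls and 2 Foxl2LsL libraries below it, 8 of the 38 genes passed (5 higher and 3 lower). With the 1 control and 2 Foxl2LsL libraries above it, where the arm of 1 control has no spread of its own and is assumed to vary like the others, 7 passed (5 higher and 2 lower). With an adipose marker score as a covariate in all 7 libraries, 9 passed (6 higher and 3 lower). The share of all genes passing was 32.7%, 30.0% and 37.2% in these fits, so the interferon-stimulated genes stayed below the whole table at 21.1%, 18.4% and 23.7%. The count of higher genes was 5 or 6 in these fits, against 1 over all 7 libraries without the covariate.

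Oas2 did not pass over all 7 libraries, and its estimate moved widely with the libraries used. It encodes an enzyme that makes oligoadenylates to activate the nuclease RNase L when it meets double-stranded RNA. Oas2 was at 19.2, 17.5 and 6.03 FPKM in controls 1, 2 and 4, and at 56.4, 11.9, 22.8 and 52.9 FPKM in libraries 1 to 4 labelled Foxl2LsL. Its groups overlapped because Foxl2LsL 2 lay below controls 1 and 2, and the difference did not pass (log2 fold change 1.18, SE 0.59, limma adjusted p 0.148). The fits on adipose markers were chosen after the data were seen, and their p-values support no change. Below 5 FPKM of Adipoq the log2 fold change of Oas2 was 1.52 (limma adjusted p 0.00128), and with the covariate 1.80 (0.00848). Above 5 FPKM, with 1 control, it was 1.31. Without Foxl2LsL 2 it was 1.6 (adjusted p 0.0477), and without control 4 it was 0.69 (0.374), without Foxl2LsL 1 0.88 (0.289) and without Foxl2LsL 4 0.91 (0.291). Over its 21 alternatives it passed in 4, with adjusted p from 0.00128 to 0.374 (limma, Benjamini-Hochberg). Parp14, a poly(ADP-ribose) polymerase family member, likewise did not pass over all 7 libraries (mean 9.29 FPKM, SD 2.0, n = 3, against 12.6 FPKM, SD 2.25, n = 4; log2 fold change 0.40, limma adjusted p 0.0926). It passed with array weights (0.44, limma adjusted p 0.0199) and without control 1 (0.54, adjusted p 0.0455). In the adipose fits its log2 fold change was 0.46 below 5 FPKM of Adipoq (adjusted p 0.0333) and 0.58 with the covariate (0.00439). Above 5 FPKM, with 1 control, it was 0.49. Without control 4 it was 0.25 (0.241), and its adjusted p ranged from 0.00439 to 0.241 in 21 alternatives (limma, Benjamini-Hochberg).

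The IFIT proteins bind foreign RNA and block its translation, and 2 of the 3 listed members changed in opposite directions. Ifit3 was at 4.53, 4.17 and 1.98 FPKM in controls 1, 2 and 4, and at 7.32, 5.75, 6.99 and 6.92 FPKM in libraries 1 to 4 labelled Foxl2LsL. Every Foxl2LsL library exceeded every control, and the log2 fold change was 0.81 (SE 0.21, limma adjusted p 0.0186). Its close copy Ifit3b moved in the same direction, with means of 1.16 FPKM (SD 0.465, n = 3) and 2.55 FPKM (SD 0.478, n = 4), and reads shared by such copies cannot be assigned from the table. Ifit2 was at 3.91, 3.92 and 2.78 FPKM in controls 1, 2 and 4. All 4 libraries of the other group lay below them, at 2.20, 2.44, 2.37 and 2.0 FPKM (log2 fold change -0.47, SE 0.12, limma adjusted p 0.0171). Ifit1 followed the order of the libraries instead, with 10.3, 7.09 and 4.18 FPKM in controls and 10.4, 3.30, 4.87 and 7.61 FPKM in the other group (log2 fold change -0.15, limma adjusted p 0.778). The log2 fold change of Ifit3 was 0.53 without control 4 (adjusted p 0.00738), and its call was lost without Foxl2LsL 3 (0.80, adjusted p 0.0501; 0.000926 to 0.0677 over its alternatives). That of Ifit2 was lost without control 1 or 2 (both -0.41, adjusted p 0.0521 and 0.0670) and above 5 FPKM of Adipoq (-0.15, adjusted p 0.568; 0.000814 to 0.568 over its alternatives; limma, Benjamini-Hochberg).

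The proximal promoters of the genes that changed are shown to set the sequence beside these values. The 250 bases before the transcription start were taken from RefSeq (build GRCm38.p6), 5′ to 3′ on the gene's strand, for Ifit3 (chr19:34583279-34583528, plus strand), Ifit2 (chr19:34550444-34550693, plus strand, the first of 2 starts), Rsad2 (chr12:26456453-26456702, minus strand), Ddx58 (chr4:40239826-40240075, minus strand) and Xaf1 (chr11:72301379-72301628, plus strand). Capitals mark a match on either strand to the letters searched for the interferon-stimulated response element, which are GAAA, any 2 bases and GAAA (TTTC, any 2 bases and TTTC when read on the other strand), or to TTCNNNGAA, those for the gamma-activated site.
Ifit3: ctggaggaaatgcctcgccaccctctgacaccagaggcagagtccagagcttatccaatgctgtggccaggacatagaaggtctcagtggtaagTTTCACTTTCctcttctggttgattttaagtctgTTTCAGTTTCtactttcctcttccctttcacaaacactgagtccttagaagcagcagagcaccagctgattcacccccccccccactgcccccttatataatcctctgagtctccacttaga
Ifit2: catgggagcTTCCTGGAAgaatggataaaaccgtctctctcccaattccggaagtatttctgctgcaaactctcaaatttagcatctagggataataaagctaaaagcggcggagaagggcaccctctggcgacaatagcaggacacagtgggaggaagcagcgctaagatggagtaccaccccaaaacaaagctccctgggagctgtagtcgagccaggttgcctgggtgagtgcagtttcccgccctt
Rsad2: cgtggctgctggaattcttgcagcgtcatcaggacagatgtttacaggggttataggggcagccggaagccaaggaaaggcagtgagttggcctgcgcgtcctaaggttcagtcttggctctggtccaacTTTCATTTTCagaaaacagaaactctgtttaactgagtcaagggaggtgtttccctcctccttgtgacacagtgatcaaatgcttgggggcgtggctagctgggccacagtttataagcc
Ddx58: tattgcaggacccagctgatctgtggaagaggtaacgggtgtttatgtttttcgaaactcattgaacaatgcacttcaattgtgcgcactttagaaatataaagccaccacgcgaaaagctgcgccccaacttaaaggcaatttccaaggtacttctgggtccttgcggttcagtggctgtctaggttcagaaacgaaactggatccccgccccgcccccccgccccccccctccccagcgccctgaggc
Xaf1: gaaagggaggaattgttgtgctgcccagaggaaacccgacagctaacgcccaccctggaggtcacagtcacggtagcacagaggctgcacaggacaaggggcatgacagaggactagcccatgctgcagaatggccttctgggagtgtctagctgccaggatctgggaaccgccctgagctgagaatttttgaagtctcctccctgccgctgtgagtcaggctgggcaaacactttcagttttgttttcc
Ifit3, which rose, holds 2 matches to the response element in these bases, and Rsad2, which fell, holds 1. Ifit2 and Xaf1 hold none, and in Ddx58 a match begins at base 3 after the start. RefSeq windows from 250 bases before to 50 after the start were matched for 29 of the 38 genes, leaving Dhx58, Zbp1, Usp18, Oas2, Mx1, Mx2, Iigp1, Rtp4 and Parp14. The response element letters were present in 19 of the 29 genes (20 of their 34 windows, 58.8%) against 3.44% of 32851 windows of the same length over the genome. TTCNNNGAA was present in 9 of the 29 genes (9 of 34 windows, 26.5%) against 8.30%, and in Bst2 and Ifitm3 it shares bases with a response element match. A match is a description of the letters, not a bound site.

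Among the other antiviral effectors, Rsad2, which encodes viperin, a radical SAM enzyme that makes a chain-terminating nucleotide, fell. It was at 5.87, 3.42 and 2.10 FPKM in controls 1, 2 and 4 and at 1.42, 2.27, 1.55 and 1.16 FPKM in the other group. Control 4 lay just below Foxl2LsL 2, so the groups overlapped although the log2 fold change was -0.82 (SE 0.27, limma adjusted p 0.0404). Cmpk2, the kinase gene next to Rsad2 whose product supplies nucleotides to the same reaction, had a mean of 4.28 FPKM (SD 1.11, n = 3) in controls and 3.24 FPKM (SD 0.641, n = 4) in the other group, a log2 fold change of -0.31 that did not pass (limma adjusted p 0.186). The call of Rsad2 was lost without control 1 (-0.53), control 2 (-0.85) or Foxl2LsL 1 (-0.80), 3 (-0.82) or 4 (-0.74), with adjusted p of 0.0835 to 0.0949. It was also lost with quantile normalization (-0.77, 0.0526), with no filter on low values (-0.82, 0.0696), with the adipose covariate (-0.77, 0.0872) and above 5 FPKM of Adipoq (-0.10, 0.753), and over its alternatives the adjusted p was 0.00255 to 0.753 (limma, Benjamini-Hochberg).

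The other 5 effectors did not pass. Ifitm3, a membrane protein that blocks viral entry, had the highest level of the 38 genes, at 1055, 827 and 666 FPKM in controls and 804, 717, 910 and 756 FPKM in the other group. Bst2, the tether of budding virions, followed with means of 148 FPKM (SD 24.7, n = 3) and 135 FPKM (SD 30.0, n = 4). Both overlapped between genotypes and varied less than the dynamin-like GTPase Mx1. Mx1 was at 3.09, 2.20 and 1.05 FPKM in controls and at 7.09, 1.13, 2.52 and 5.32 FPKM in libraries 1 to 4 labelled Foxl2LsL, so that its 2 highest and its next-to-lowest values were all in that group (log2 fold change 0.56, limma adjusted p 0.360). In the adipose fits, whose p-values support no change, its log2 fold change was 0.98 below 5 FPKM of Adipoq (limma adjusted p 0.0147). With the adipose covariate it was 1.04 (limma adjusted p 0.0266), and above 5 FPKM, with 1 control, 0.42. Mx2 and Eif2ak2, the kinase PKR that halts translation, had log2 fold changes of 0.16 and 0.06.

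**Figure D4:**
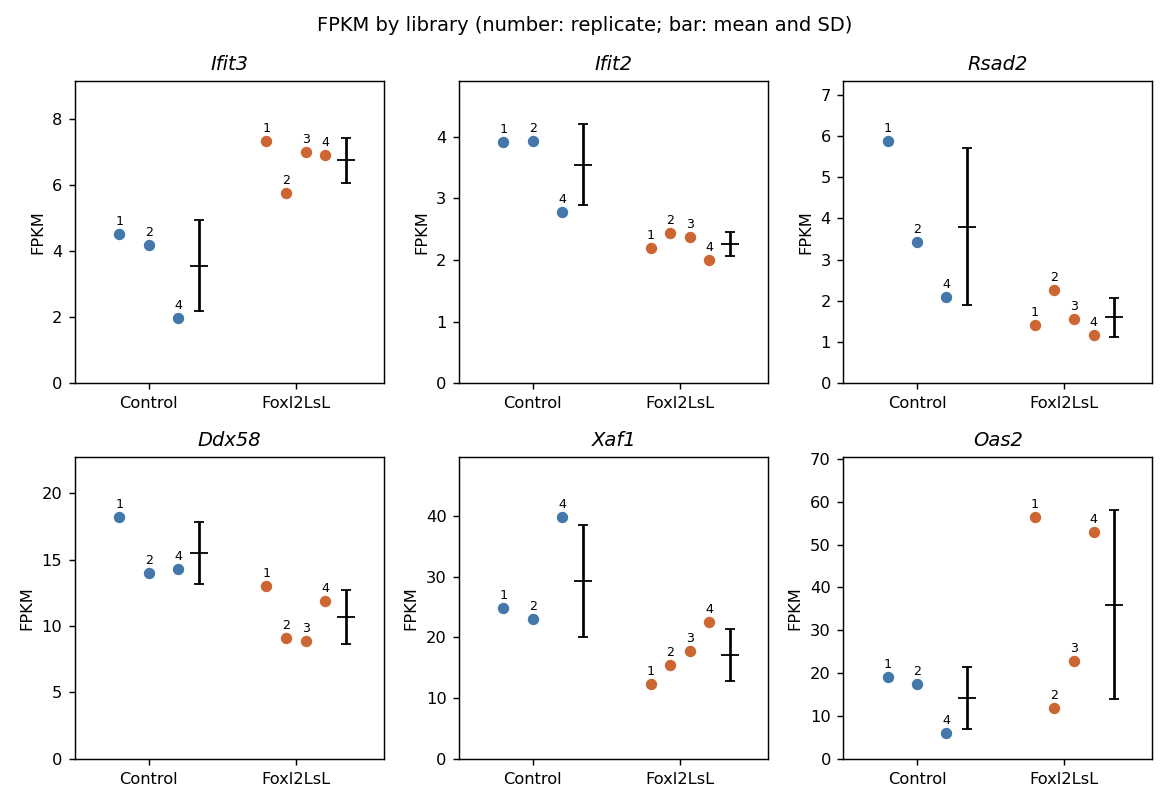
FPKM (y axis) in each control and Foxl2LsL library (points, numbered by replicate) with the group mean and SD (black bar) for the 5 interferon-stimulated genes that passed the threshold and for Oas2. The Ifit3 points labelled Foxl2LsL all lie above the controls and those of Ifit2, Ddx58 and Xaf1 all below, while Rsad2 and Oas2 overlap.

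Of the 5 sensors of foreign nucleic acid, Ddx58 alone passed. It encodes RIG-I, the cytosolic sensor of uncapped viral RNA. Ddx58 was at 18.2, 14.0 and 14.3 FPKM in controls 1, 2 and 4 and at 13.0, 9.08, 8.90 and 11.9 FPKM in the other group, below every control (log2 fold change -0.51, SE 0.15, limma adjusted p 0.0324). The related sensors Ifih1 (MDA5), at 3.80 ± 0.949 and 4.31 ± 0.749 FPKM (SD, n = 3 and n = 4), and Dhx58 (LGP2), at 5.13 ± 2.02 and 6.13 ± 2.12 FPKM, had estimates above 0 that did not pass (0.16 and 0.23). Zbp1, a sensor of Z-form nucleic acid, showed the order of the libraries more strongly, with 4.95, 4.06 and 1.16 FPKM in controls and 5.43, 1.09, 2.11 and 4.24 FPKM in the other group. Ddx60, a helicase reported to assist these sensors, was the lowest of the 38 genes on average, at 1.68 ± 0.411 and 1.81 ± 0.498 FPKM. The call of Ddx58 was lost without control 1 (-0.39), control 2 (-0.57), Foxl2LsL 2 (-0.44) or Foxl2LsL 3 (-0.43), with adjusted p of 0.0544 to 0.0937, with no filter on low values (-0.51; 0.0529) and below 5 FPKM of Adipoq (-0.34; 0.118). Over its alternatives the adjusted p was 0.0143 to 0.118 (limma, Benjamini-Hochberg).

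Xaf1, a gene whose product antagonises the apoptosis inhibitor XIAP, ran against the order of the others. It was at 24.9, 23.1 and 39.8 FPKM in controls 1, 2 and 4 and at 12.4, 15.5, 17.8 and 22.6 FPKM in libraries 1 to 4 labelled Foxl2LsL. Control 4 was thus its highest library and Foxl2LsL 1 its lowest, and the groups did not overlap by a margin of 23.1 against 22.6 FPKM (log2 fold change -0.73, SE 0.24, limma adjusted p 0.0400). The call was lost without control 1 (-0.82), control 4 (-0.50) or Foxl2LsL 1 (-0.60), 2 (-0.70) or 3 (-0.76), with adjusted p of 0.0524 to 0.0896, and below 5 FPKM of Adipoq (-0.49; 0.211). It was also lost with median centring (-0.68; 0.0555), quantile normalization (-0.67; 0.0554), no filter (-0.73; 0.0669) and array weights (-0.38; 0.149), and over its alternatives the adjusted p was 0.000498 to 0.211 (limma, Benjamini-Hochberg).

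None of the 4 transcription factor genes passed. Irf7, the regulator that amplifies type I interferon production, was at 20.6, 18.6 and 10.6 FPKM in controls 1, 2 and 4 and at 39.0, 7.69, 12.8 and 28.6 FPKM in libraries 1 to 4 labelled Foxl2LsL. Its highest and its lowest library were both labelled Foxl2LsL (log2 fold change 0.19, SE 0.52, limma adjusted p 0.791). Below 5 FPKM of Adipoq the estimate of Irf7 was 0.74 (limma adjusted p 0.0223, a description that supports no change). Above it, with 1 control, the estimate was -0.08. Irf9, the DNA-binding part of the type I complex, was at 21.8 ± 3.69 and 26.7 ± 4.52 FPKM (SD, n = 3 and n = 4, log2 fold change 0.28). Among 21 alternatives it passed with the adipose covariate only, a description that supports no change (0.44, limma adjusted p 0.0158, range 0.0158 to 0.475). Stat2 and Irf1, a factor of the type II response, had log2 fold changes of -0.06 and 0.03.

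Isg15, a ubiquitin-like protein attached to other proteins during infection, and Usp18, the protease that removes it and damps the receptor, also did not pass. Isg15 was at 25.6, 23.4 and 10.4 FPKM in controls 1, 2 and 4 and at 19.9, 4.38, 10.2 and 13.7 FPKM in the other group (log2 fold change -0.74, SE 0.48, limma adjusted p 0.248). Controls 1 and 2 lay above every library labelled Foxl2LsL, and control 4 lay among them. Usp18 was at 7.45 ± 1.51 and 5.40 ± 2.0 FPKM (SD, n = 3 and n = 4; log2 fold change -0.45, limma adjusted p 0.222). Both estimates stayed below 0 in all 21 alternatives, and neither passed in any of them.

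The 5 genes of the OAS family differed widely between libraries of one genotype. Oas3, which makes longer oligoadenylates, was at 3.51 FPKM in Foxl2LsL 1 and 0.204 FPKM in Foxl2LsL 2, a ratio of 17.2, the largest of the 38 genes. Its controls were at 3.96, 3.18 and 1.03 FPKM (log2 fold change -0.50, limma adjusted p 0.483). Oas1a, Oasl1 and Oasl2 had the same order, with ratios of 3.24, 5.57 and 2.60 between Foxl2LsL 1 and 2 and log2 fold changes of 0.10, -0.19 and 0.17. In all 5 genes controls 1 and 2 exceeded control 4, and Foxl2LsL 1 and 4 exceeded 2 and 3. Members of this family and of the GTPase families below are similar in sequence, so fragments shared between copies may be split in ways the table does not show.

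The 6 interferon-inducible GTPases, which act on vacuoles of intracellular pathogens and are typical of the type II response, varied less. None passed. Gbp2 was at 17.2, 10.1 and 8.60 FPKM in controls and 16.2, 13.7, 15.4 and 18.1 FPKM in the other group. Its log2 fold change was 0.43 (limma adjusted p 0.140). It passed without control 1 (0.70, limma adjusted p 0.00605) and with array weights (0.59, adjusted p 0.0104), in a range of 0.00605 to 0.364. Above 5 FPKM of Adipoq, with 1 control, its log2 fold change was 0.70. Gbp3 pointed the other way, at 12.1 ± 2.51 and 8.79 ± 1.29 FPKM (SD, n = 3 and n = 4, log2 fold change -0.41, limma adjusted p 0.0681). It passed without control 4 (-0.56, limma adjusted p 0.0163), with array weights (-0.38, 0.0199) and with FPKM rescaled to a common sum (-0.43, 0.0481). Below 5 FPKM of Adipoq, a fit that supports no change, its log2 fold change was -0.43 (limma adjusted p 0.0336). Its adjusted p had a range of 0.0163 to 0.339. Igtp and Irgm1 had log2 fold changes of -0.23 and 0.04, and Irgm2 and Iigp1 of 0.25 and 0.38. Among its alternatives Igtp passed with array weights only (limma adjusted p 0.0477, range 0.0477 to 0.602). The log2 fold change of Iigp1 was 0.81 above 5 FPKM of Adipoq, with 1 control. Igtp was the steadiest of the group, between 9.21 and 13.8 FPKM in all 7 libraries.

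The last listed genes followed the library order without passing. Rtp4, a chaperone of membrane receptors, was at 23.5, 17.5 and 10.1 FPKM in controls and 25.8, 8.56, 14.8 and 22.6 FPKM in the other group. Ifi44 was at 5.10, 8.96 and 2.56 FPKM in controls and 11.4, 2.77, 3.70 and 6.42 FPKM in the other group. Trim30a and Ifi35 had log2 fold changes of 0.19 and 0.02. Trim30a passed with the adipose covariate only, a description that supports no change (0.52, limma adjusted p 0.0481, range 0.0481 to 0.992).

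The second question was whether the pathway upstream of these genes differed. Of 39 ligand, receptor, kinase, feedback and sensing genes, 28 had a mean of at least 1 FPKM; 7 rose and 5 fell, 42.9% of those tested beside 40.6% of all genes. Among 10 interferon genes, Ifne alone reached that level. Ifne, the epithelial interferon epsilon, was at 1.07, 1.32 and 2.16 FPKM in controls 1, 2 and 4 and at 14.7, 10.1, 16.9 and 16.9 FPKM in libraries 1 to 4 labelled Foxl2LsL. Every Foxl2LsL library lay well above every control, and at least 45 fragments stood behind each value. The log2 fold change was 2.64 (SE 0.21, limma adjusted p 0.000227), and it passed in all 21 alternatives (2.16 to 3.32, adjusted p 1.62e-05 to 0.0114). The order of Ifne over the libraries differed from that of the interferon-stimulated genes: control 4 was its highest control, and Foxl2LsL 3 equalled Foxl2LsL 4.

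For comparison with the promoters above, the 250 bases before the RefSeq start of Ifne (chr4:88880202-88880451, minus strand) hold no match to the response element and 1 match to TTCNNNGAA, in capitals.
Ifne: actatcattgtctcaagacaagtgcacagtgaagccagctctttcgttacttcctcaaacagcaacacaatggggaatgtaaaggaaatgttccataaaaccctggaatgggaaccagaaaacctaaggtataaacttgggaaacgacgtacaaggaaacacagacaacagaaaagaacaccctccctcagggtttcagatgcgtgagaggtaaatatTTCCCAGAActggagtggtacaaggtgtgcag
The other 9 interferon genes had values too low to compare. Ifna1, Ifna2, Ifnl2 and Ifnl3 are listed at 0 in all 7 libraries. The haemoglobin genes Hba-a1 and Hbb-bs, which like them have close copies, are also listed at 0 in all 7, so a listed 0 is not read as absence. Ifna4, Ifna5, Ifnb1, Ifnk and Ifng reached at most 0.049, 0.111, 0.027, 0.026 and 0.076 FPKM.

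**Figure D5:**
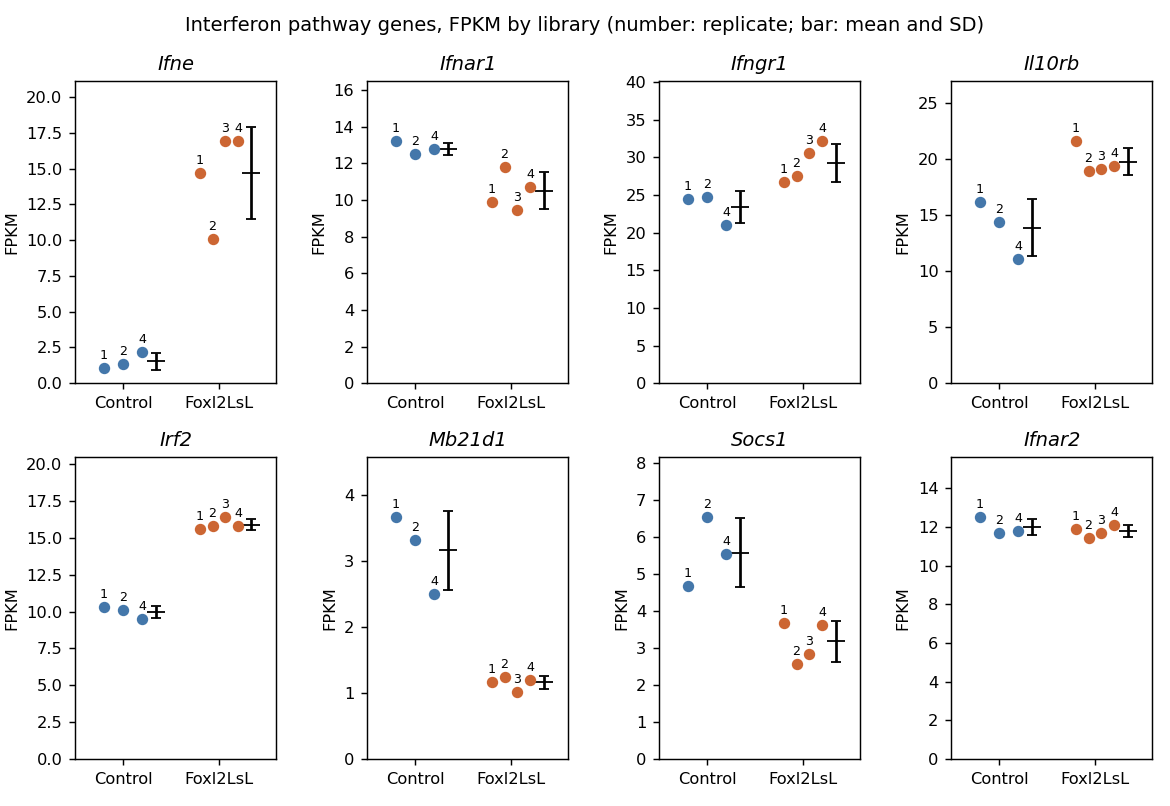
FPKM (y axis) in each control and Foxl2LsL library (points, numbered by replicate) with the group mean and SD (black bar) for 8 genes of interferon signalling and induction. Ifne, Ifngr1, Il10rb and Irf2 lie higher in every Foxl2LsL library, Ifnar1, Mb21d1 and Socs1 lower in every one, and Ifnar2 overlaps.

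Of the 6 receptor genes, Ifngr1 and Il10rb rose and Ifnar1 fell. Il10rb, a chain shared by the receptors of type III interferons and interleukin-10, had a mean of 13.9 FPKM (SD 2.56, n = 3) in controls and 19.8 FPKM (SD 1.20, n = 4) in the other group. It rose by 0.49 on the log2 scale (SE 0.12, limma adjusted p 0.0145), and passed in all 21 alternatives. Ifngr1 went from 23.4 ± 2.08 to 29.2 ± 2.53 FPKM (0.31, adjusted p 0.0317) and Ifnar1 from 12.8 ± 0.327 to 10.5 ± 1.01 FPKM (-0.27, adjusted p 0.0328). Ifngr1 lost its call without control 2 (0.35) or 4 (0.24) or Foxl2LsL 3 (0.29) or 4 (0.27), with adjusted p of 0.0557 to 0.0828. Ifnar1 lost it without any library but Foxl2LsL 2, with log2 fold changes of -0.29 to -0.23 and adjusted p of 0.0589 to 0.0813. Ifnar1 also lost its call with FPKM rescaled to a common sum (-0.29, adjusted p 0.0511), median centring (-0.22; 0.0616) and quantile normalization (-0.22; 0.0638). Over their alternatives the adjusted p was 0.0119 to 0.156 for Ifngr1 and 0.0128 to 0.289 for Ifnar1 (limma, Benjamini-Hochberg). Ifnar2, Ifngr2 and Ifnlr1 did not pass (-0.02, 0.37 and 0.05). Neither did the kinase genes Jak1, Jak2 and Tyk2, whose log2 fold changes were -0.13, 0.16 and 0.01.

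Among feedback and sensing genes, Irf2, a factor that can compete with IRF1 at target promoters, had means of 9.97 FPKM (SD 0.426, n = 3) and 15.9 FPKM (SD 0.368, n = 4). It rose by 0.62 on the log2 scale (SE 0.06, limma adjusted p 0.000505). Mb21d1, the gene of the DNA sensor cGAS, fell from 3.16 ± 0.6 to 1.16 ± 0.101 FPKM (-0.94, SE 0.12, adjusted p 0.00121; limma). Irf2 and Mb21d1 passed in every alternative fitted, 21 and 20 in number. Socs1, the inhibitor of JAK kinases, fell from 5.58 ± 0.939 to 3.18 ± 0.558 FPKM (-0.66, limma adjusted p 0.00837). Its call was lost below 5 FPKM of Adipoq (-0.49, limma adjusted p 0.0653) and with the replicate number as a block (limma adjusted p 0.0719). Over its alternatives the adjusted p was 0.00148 to 0.0719 (limma, Benjamini-Hochberg). Socs3, a relative of Socs1, fell as well (-0.54, limma adjusted p 0.0219). Mavs, the adaptor of RIG-I and MDA5, rose from 17.4 ± 1.5 to 22.3 ± 1.33 FPKM (0.34, limma adjusted p 0.0123), as did Trim25, a ubiquitin ligase acting on RIG-I (0.46; 0.0201), and the phosphatase gene Ptpn6 (0.31; 0.0218). Irf8, a factor of myeloid cells, fell (-0.42; 0.0207).

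Some of these calls were lost when a single library was left out, most with little change in the estimate. Calls over all genes also fell with fewer libraries, from 5409 to 3853 without control 2 and to 3975 without Foxl2LsL 3. Socs3 lost its call without control 1 (-0.47) or 2 (-0.52) or Foxl2LsL 2 (-0.48) or 3 (-0.49), with adjusted p of 0.0516 to 0.0715. Irf8 lost it without control 2 (-0.36), control 4 (-0.37) or Foxl2LsL 4 (-0.42), with adjusted p of 0.0510 to 0.0786. Ptpn6 lost it without control 1 (0.27), control 4 (0.29) or Foxl2LsL 3 (0.29), with adjusted p of 0.0505 to 0.0631. Trim25 lost it without control 2 (0.48) or Foxl2LsL 3 (0.46) or 4 (0.41), and Mavs without control 2 (0.32, adjusted p 0.0501), with adjusted p of 0.0501 to 0.0544 for Trim25. Over all alternatives the adjusted p reached 0.116 for Socs3, 0.163 for Irf8, 0.180 for Ptpn6, 0.0796 for Trim25 and 0.0736 for Mavs, from lowest values of 0.00924, 0.00209, 0.00914, 0.00236 and 0.00171 (limma, Benjamini-Hochberg).

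A further list held 55 interferon-induced genes. Of 53 tested, 10 rose and 3 fell, 24.5% beside 40.6% of all genes, with a median log2 fold change of 0.15. The largest rise was that of Ifi27l2a, with means of 13.0 FPKM (SD 1.38, n = 3) and 41.3 FPKM (SD 12.6, n = 4, log2 fold change 1.54, SE 0.25, limma adjusted p 0.00294). The nuclear body genes Sp100 (1.08) and Sp110 (0.83) also rose, and all 3 passed in all 21 alternatives. Phf11d (0.80, limma adjusted p 0.0479) and Ifit3b (0.73; 0.0148) were the next largest. B2m, the light chain of MHC class I, was at 565, 720 and 322 FPKM in controls 1, 2 and 4 and 321, 273, 332 and 289 FPKM in the other group (-0.74, limma adjusted p 0.0453). Isg20, an exonuclease gene, and Tor3a fell by 0.56 and 0.47 on the log2 scale. In 32 of the 53 genes, controls 1 and 2 exceeded control 4 and Foxl2LsL 1 and 4 exceeded 2 and 3, beside 14.2% of all genes tested.

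Of the 8 genes named from that list, B2m, Phf11d and Isg20 lost their calls without single libraries. B2m lost its call without control 1 (-0.67) or 2 (-0.49) or any library labelled Foxl2LsL (-0.79 to -0.69), with adjusted p of 0.0750 to 0.138, and its fold change above 5 FPKM of Adipoq was -0.10 (adjusted p 0.747; 0.00104 to 0.747 over its alternatives). Phf11d lost it without control 2 (0.92) or 4 (0.53) or Foxl2LsL 1 (0.67), 3 (0.84) or 4 (0.71), with adjusted p of 0.0686 to 0.112 (0.00322 to 0.114 over its alternatives). Isg20 lost it without control 2 (-0.41, adjusted p 0.0664; 0.00171 to 0.0918 over its alternatives; limma, Benjamini-Hochberg).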

How the data were processed

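Gene expression was measured by RNA sequencing of whole uterus, with RNA extracted with TRIzol and standard Illumina libraries, per the labels' protocols. The authors deposited FPKM values and the length of each gene for 24964 symbols, per the file headers. Per the submitters' processing notes, STAR 2.5.2b, featureCounts 1.5.0-p1, Subread and DESeq2 1.12.4 were used with build mm10; the annotation and the use of strand are not given in the sources used here. Because FPKM is relative to a library's total, a strong rise of abundant genes lowers the values of the rest. Whole fragments were recovered from FPKM times length: in each library 100% of 1653 to 1832 low values (genes up to 1500 bases, up to 20 fragments) lay within 0.1 of a whole number.

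Genes with a mean of at least 1 FPKM (13334) were compared on log2(FPKM + 1) with limma 3.58.1 in R 4.3.3 (trend; Benjamini-Hochberg over all genes tested; threshold 0.05). In simulated data for these 13334 genes, 88 of 100 genes changed by 1 and 100 of 100 changed by 2 on the log2 scale were recovered in the right direction. Another 17 genes that were not changed were called. The changed genes were drawn from those with a mean of at least 2 FPKM, and noise was drawn separately for each gene. Shifts shared by many genes of a library were not simulated, so these shares do not describe the 38 members. Tables were made with pandas 2.3.3 and numpy 2.4.6 in Python 3.11.15, and figures with matplotlib 3.10.9. All 38 members are accounted for. Named besides them were all pathway ligands, receptors and kinases, called feedback and sensing genes, and up to 5 rises and 5 falls of the further list. Uncalled feedback and sensing genes enter only the counts, and one gene was left out of the pathway list and is not reported here. The members and lists were chosen with earlier results of these data known. In all, 21 alternatives were run, 18 planned and 3 chosen after seeing the data.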

Additional observations from a re-analysis of the deposited data

Results flagged for a closer look

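In 65 named genes the 4 libraries labelled Foxl2LsL were searched for a value far from the rest, which chance would give in about 1 of 20 groups. It appeared in 2: Il10rb at 21.6 FPKM in Foxl2LsL 1, above 19.0 to 19.4 FPKM in the other 3, and Sp110 at 9.61 FPKM in Foxl2LsL 2, below 12.2 to 12.4 FPKM. None of the 38 interferon-stimulated genes was among them.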

How the results depend on the processing

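The count of interferon-stimulated genes past the threshold was 1 higher and 4 lower. With each of the 7 libraries left out in turn, it was 0 to 3 higher and 0 to 4 lower. The total of these genes was 3 without control 1, 2 without control 2, 3 without Foxl2LsL 1 and 1 without Foxl2LsL 3. Their median log2 fold change was -0.16 to 0.17 in these fits. The pathway list gave 4 to 9 higher and 2 to 4 lower, the further list 6 to 17 higher and 1 to 8 lower, and all genes 1636 to 2131 higher and 2195 to 3197 lower. Without an adipose covariate or division, the higher count of the 38 genes moved to 3 with array weights, and the lower count to 2 with quantile normalization, 1 with no filter and 2 with a mean of at least 5 FPKM, which also left 2 lower pathway genes. The higher count became 6 with the adipose covariate and 5 on either side of 5 FPKM of Adipoq, with 2 lower above it. Array weights gave 17 higher and 5 lower in the further list, and the covariate 17 higher; below 5 FPKM of Adipoq there were 5 lower in it and 1 lower in the pathway list, and above it 1 lower in the further list. The cause was not tested. Of all genes past the threshold, 41.1% were higher as deposited, 50.4% after median centring and 49.2% after quantile normalization.

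Numbers 1, 2 and 4 are shared by both groups, but deviations of same-numbered replicates correlated at 0.228, -0.0306 and -0.112, so the numbers were not taken as pairs. With the replicate block 0 of the 38 genes were higher and 3 lower, Ddx58, Ifit2 and Xaf1; the pathway list had 4 higher and 1 lower, the further list 4 and 1, and all genes 1368 and 1875. The same 6 libraries without the block gave 1 of the 38 genes, Ifit2.

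Of the 65 named genes, 25 passed the threshold, none of these 25 changed direction in any of the 21 alternatives, and 7 of them passed in every one fitted. Another 26 named genes, 21 of them interferon-stimulated genes, changed direction in at least 1 alternative; none of them passed over all 7 libraries. With the adipose covariate the log2 fold changes were Zbp1 0.44, Stat2 0.11, Ifit1 0.25, Oas3 0.09, Oasl1 0.33, Bst2 0.02 and Tyk2 -0.02. Below 5 FPKM of Adipoq they were Zbp1 0.08, Stat2 0.10, Ifit1 0.05, Oasl1 0.17, Jak1 0.02 and Tyk2 -0.10. Above it they were Zbp1 0.24, Irf7 -0.08, Eif2ak2 -0.11, Ifitm3 0.28, Irgm2 -0.0042 and Ifi35 -0.17. Array weights gave Stat2 0.02, Irgm1 -0.04, Ifi44 -0.29, Ifi35 -0.01, Ifnar2 0.01 and Foxl2 -0.15. Rescaling to a common sum gave Ifi35 -0.002 and Tyk2 -0.0026, median centring and quantile normalization Ifnar2 0.03 each, and the replicate block Zbp1 0.04 and Tyk2 -0.01. With each of the 7 libraries left out in turn, the ranges were Ifih1 -0.02 to 0.25, Dhx58 -0.09 to 0.43, Zbp1 -0.51 to 0.23, Ddx60 -0.07 to 0.17, Irf1 -0.09 to 0.13, Irf7 -0.15 to 0.58, Stat2 -0.16 to 0.06, Ifit1 -0.44 to 0.12, Oas1a -0.16 to 0.39, Oasl1 -0.54 to 0.17, Oasl2 -0.08 to 0.41 and Eif2ak2 -0.02 to 0.17. They were Ifitm3 -0.24 to 0.10, Irgm1 -0.17 to 0.19, Ifi44 -0.29 to 0.45, Ifi35 -0.14 to 0.12, Rtp4 -0.28 to 0.33, Trim30a -0.10 to 0.36, Ifnar2 -0.04 to 0.0021, Ifnlr1 -0.03 to 0.19, Tyk2 -0.02 to 0.07 and Foxl2 -0.10 to 0.28. The cause was not tested. At least 46 fragments lay on each of the 38 genes in every library, and the share of counting error in these shifts was not measured.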

Other observations

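Myd88, the adaptor of most Toll-like receptors, was at 74.3 FPKM in control 4 and at 18.7 to 25.6 FPKM in the other 6 libraries. It is on the pathway list, did not pass the threshold (-0.33 on the log2 scale, limma adjusted p 0.586), and was picked with its values in view.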
